A study of Mus musculus with 4 samples.

Results

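The nail matrix is the growing epithelium at the root of the nail, and its cells fill with keratin as they move out to become the plate. The genes described here carry proteins and membrane between the compartments of a cell. They were taken from the authors' list of probe sets (each a group of short probes for 1 transcript) that differed at least 1.99-fold between proximal and distal matrix. A gene was a member if the list gave it a single symbol and one of the Gene Ontology process terms protein transport, vesicle-mediated transport or intracellular protein transport. Genes with a term for mitochondria, messenger RNA processing or splicing, receptor activity, cell junction or adhesion, or ubiquitin were left out. This gave 51 of the 1133 genes with 1 symbol in the list, read by 55 probe sets, and each gene is described by its probe set with the highest mean log2 intensity. Of the 51, 29 carried 1 of the process terms, 16 carried 2 and 6 carried all 3. Because the list was made by fold on these same arrays, every difference between regions below is a description of how the members were chosen, and no test of it is offered as support.

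The samples were intact distal matrix and intact proximal matrix, isolated by microdissection from mice aged 8 weeks, with 2 arrays for each region. Strain, sex and genotype are not given in the sources used here, no treatment is named, and the labels do not say whether the arrays of a region came from separate animals or from pools. Total RNA was labelled and hybridised to Affymetrix expression arrays, which gave intensities for 45037 probe sets besides 64 controls. The number of arrays limits the precision of every value.

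Secreted and membrane proteins enter the endoplasmic reticulum (ER) through a channel, leave it in vesicles coated by COPII, are sorted in the Golgi and return in vesicles coated by COPI. Rab GTPases mark each compartment and recruit the tethers and SNARE proteins that let vesicles fuse. Clathrin adaptors, sorting nexins and the ESCRT complexes sort cargo at the cell surface and in endosomes, and importins and exportins carry proteins and RNA through nuclear pores. In keratinizing epithelia the same machinery delivers lamellar granules and adhesion proteins to the cell surface.

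The labelled tissue could be checked only in part, because gene names come from the fold list alone and a listed marker is one that differed between regions. Krt42, a keratin of the mouse nail, had 8877 and 12310 in distal and 731 and 1415 in proximal matrix, above the control background on all 4 arrays. Of 13 genes fixed as markers of keratinocytes and nail matrix, Krt42, Krt15, Krt1, Hoxc13 and Lef1 were in the list, and the remaining ones, Krt5 and Krt14 among them, could not be looked up. Krt1 was also higher in distal matrix, at 5942 and 5742 (distal) and 2495 and 2459 (proximal). The other listed markers were higher in proximal matrix. Krt15 had 612 and 907 (distal) and 2306 and 2372 (proximal), and Hoxc13 had 136 and 120 against 401 and 664. Lef1 had 90.9 and 36.4 against 346 and 301, below the control background on distal replicate 2. Of 35 markers of other cells that the dissected tissue could hold (fibroblasts, vessels, leukocytes, melanocytes, glia, skeletal and fat tissue, erythrocytes), only the fibroblast gene Dcn was listed, which says nothing of whether the other cells were present. Dcn had 243 and 310 in distal and 984 and 1049 in proximal matrix, higher in the same region as most of the transport genes, and its part in their differences was not tested. In such bulk tissue, fewer cells of a type and less RNA per cell cannot be told apart. The highest of 27 Bacillus subtilis control probe sets on an array, for genes that mouse tissue lacks, ranged from 45.4 to 96.8 over the arrays and serves below as the control background. The 2 distal arrays correlated at r = 0.669 over all probe sets and the 2 proximal arrays at r = 0.721, and pairs across regions ranged from 0.662 to 0.721.

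Higher intensities in the proximal matrix were measured for 36 of the 51 transport genes, and higher intensities in the distal matrix for 15. The median log2 difference, distal minus proximal, was -0.99, beside -0.94 over all 1133 listed genes and -0.06 over all 45037 probe sets. The proximal share was 70.6%, beside 68.3% of listed genes (31.7% were higher in distal matrix) and 52.0% of all probe sets (48.0% higher in distal matrix). The arrays did not overlap between regions for 31 members (24 higher in proximal, 7 higher in distal matrix), or 60.8%. This stood beside 73.1% of listed genes (53.0% higher in proximal, 20.0% in distal matrix) and 34.7% of all probe sets (18.3% and 16.4%), and fold on this contrast had chosen the members. None of the 51 passed limma's test with Benjamini-Hochberg adjustment over all probe sets at the 0.05 level (0 of 51), where 0.0666% of all probe sets and 1.68% of listed genes did. The smallest limma adjusted p of a member was 0.261, for Snx6. At an unadjusted p under 0.05 there were 23 of 51, beside 5.09% of all probe sets and 47.1% of listed genes, and nothing is read from this, since fold on this contrast chose the members. Counts of direction and of overlap in each role below stand beside these same shares, 68.3% higher in proximal matrix and 73.1% without overlap among listed genes, and none was tested as particular to a role. Genes whose lower region was not above the control background were also set at their bounds, where a bound could be given. The median of the 51 was then still -0.99, and of the role medians below only that of the Rab genes differed. All 51 differed in the same direction in the deposited intensities as in the authors' deposited table, as did 1117 of the 1133 listed genes. Both are summaries of the same arrays.

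**Figure D1:**
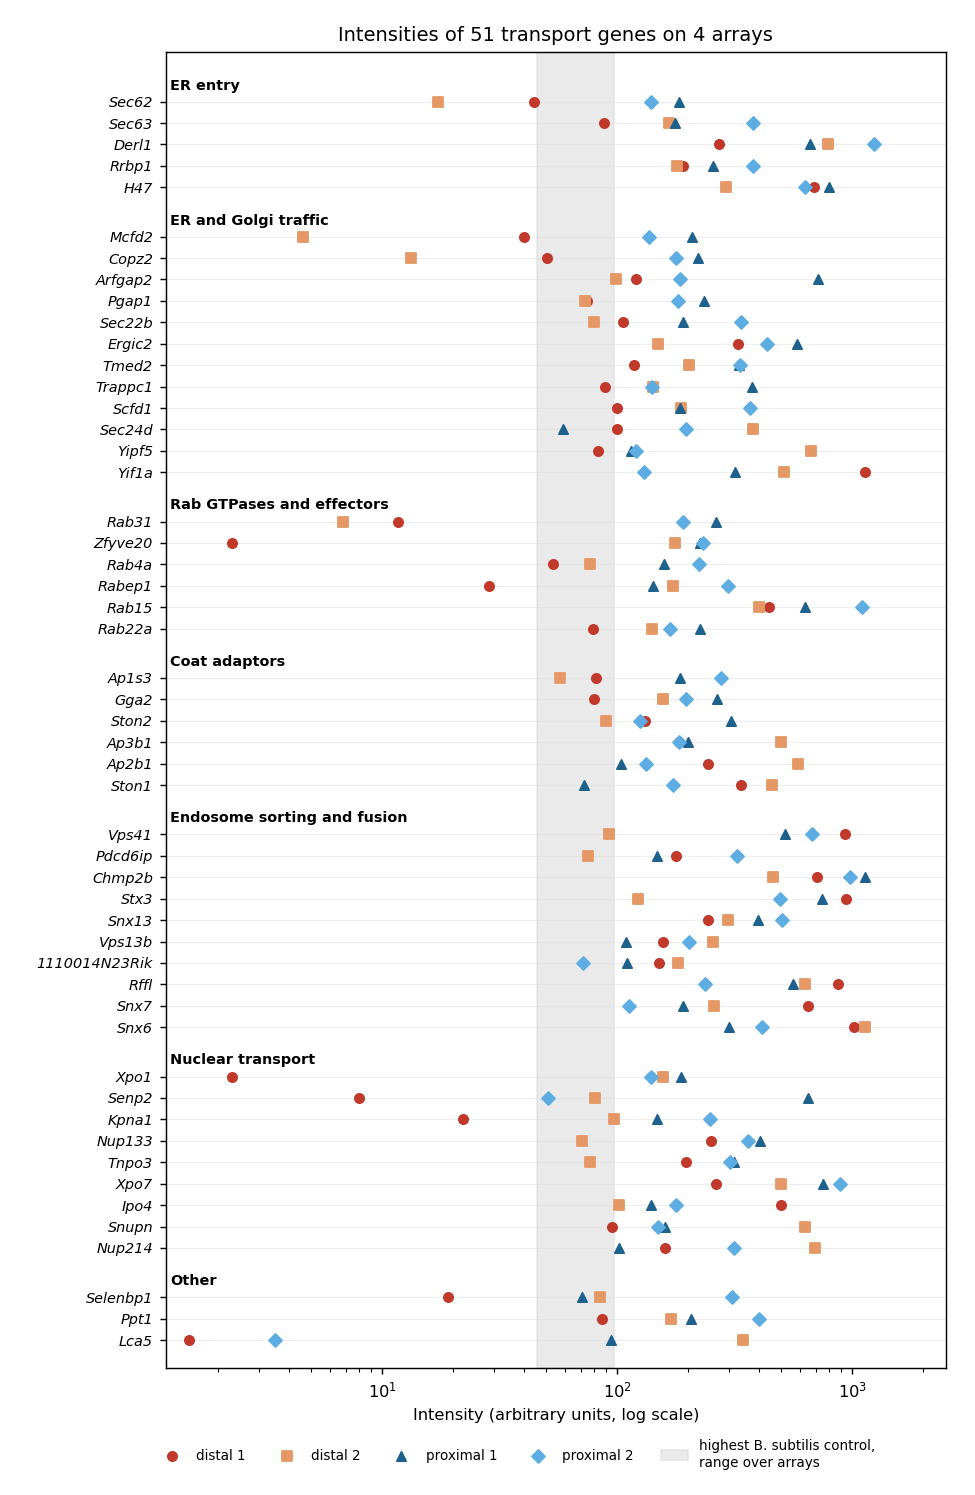
Intensity of each transport gene on the 4 arrays (horizontal log axis, arbitrary units), with genes grouped by role and 1 point per array. The grey band is the range over arrays of the highest Bacillus subtilis control (45.4 to 96.8). Levels are to be compared within a gene, not between genes. Most Rab, ER and COPI genes have their proximal points on the right, while Snx6, Snx7, Ap2b1, Ston1 and Yif1a have their distal points there.

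The promoters of 4 genes, 2 from each side, show the letters behind the motif counts. The genes were taken in order of measured log2 difference among those whose arrays did not overlap, whose higher region was above the control background and whose promoter was in the sequence table. This gave Rab31 and Mcfd2 on the proximal side and Yif1a and Ston1 on the distal side. Rab31 and Mcfd2 were not above the control background in distal matrix, so it is not known that they differed more than other members. The promoters, from 250 bases before to 50 bases after the RefSeq start in assembly GRCm38.p6, are printed here. Capitals mark every match, on either strand, to the motifs named in the next paragraph, and matches may overlap. The promoter of Rab31 lies at chr17:65772703-65773002 on the minus strand, that of Mcfd2 at chr17:87265898-87266197 on the minus strand, that of Yif1a at chr19:5088288-5088587 on the plus strand and that of Ston1 at chr17:88626305-88626604 on the plus strand.
Rab31: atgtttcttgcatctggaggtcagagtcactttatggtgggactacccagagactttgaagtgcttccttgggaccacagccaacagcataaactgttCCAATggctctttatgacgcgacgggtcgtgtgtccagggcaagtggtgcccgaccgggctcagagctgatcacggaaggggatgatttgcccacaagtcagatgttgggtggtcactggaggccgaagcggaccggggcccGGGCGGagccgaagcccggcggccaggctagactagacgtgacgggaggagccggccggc
Mcfd2: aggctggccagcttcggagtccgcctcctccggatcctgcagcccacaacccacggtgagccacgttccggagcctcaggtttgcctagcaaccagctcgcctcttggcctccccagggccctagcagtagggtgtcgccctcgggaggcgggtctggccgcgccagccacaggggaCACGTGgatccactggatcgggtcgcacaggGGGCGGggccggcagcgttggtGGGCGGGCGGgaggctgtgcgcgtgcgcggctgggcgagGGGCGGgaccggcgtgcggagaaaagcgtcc
Yif1a: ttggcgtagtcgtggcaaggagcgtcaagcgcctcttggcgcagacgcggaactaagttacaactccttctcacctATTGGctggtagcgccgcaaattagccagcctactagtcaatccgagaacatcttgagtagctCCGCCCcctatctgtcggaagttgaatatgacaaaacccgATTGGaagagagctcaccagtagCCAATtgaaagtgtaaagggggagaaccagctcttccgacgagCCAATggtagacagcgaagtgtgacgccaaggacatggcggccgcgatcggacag
Ston1: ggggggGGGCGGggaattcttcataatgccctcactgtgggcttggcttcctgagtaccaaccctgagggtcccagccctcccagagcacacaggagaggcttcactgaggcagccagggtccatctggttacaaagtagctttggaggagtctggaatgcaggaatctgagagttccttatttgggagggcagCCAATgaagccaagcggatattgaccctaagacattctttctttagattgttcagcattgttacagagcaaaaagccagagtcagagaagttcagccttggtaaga

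A promoter was found for 41 of the 51 members and for 846 of the listed genes, in a table of 27025 genes, and a gene was counted if any of its promoters held the motif on either strand. CACGTG, the core letters bound by the lysosomal regulators TFEB and TFE3 among many factors, was in 6 of 41 members (Gga2, H47, Ipo4, Mcfd2, Pdcd6ip and Sec62), or 14.6%, beside 12.2% of listed genes and 8.09% of all genes in the table. TGACGT, shared by sites of cyclic AMP response and of ER stress factors, was in 6 (Ap2b1, Nup133, Nup214, Scfd1, Sec24d and Senp2), or 14.6%, beside 12.9% and 8.37%. The CCAAT box was in 21 of 41, or 51.2%, beside 40.2% and 41.1%. It was in 9 of the 12 members higher in distal matrix and in 12 of the 29 higher in proximal matrix. Listed genes were not divided by direction for this motif, so these counts have no background and nothing is read from them. The GC box, GGGCGG, was in 24 of 41, or 58.5%, beside 72.2% of listed genes and 38.2% of all genes. The ER stress element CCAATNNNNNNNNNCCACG was in 0 of 41, beside 0.118% and 0.137%. None of these shares was tested, a match is a run of letters and not a shown site, and a window without one shows only that the letters are absent there.

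The 5 genes of ER entry all had higher intensities in the proximal matrix, with a median log2 difference of -0.97. Sec62 and Sec63 encode partner proteins of the translocation channel that help chains into the ER after their synthesis. Sec62 had intensities of 44.2 and 17.2 (distal) and 184 and 139 (proximal), given here and below in the order of replicates 1 and 2. The arrays did not overlap, both distal values lay below the control background, and the proximal level was at least 2.34-fold higher. Sec63 had intensities of 87.9 and 166 (distal) and 176 and 378 (proximal), a log2 difference of -1.09 ± 0.69 (SE, n = 2 arrays per region), with the upper distal value just under the lower proximal one. It was -0.64 without distal replicate 1 and -0.54 without proximal replicate 2. Derl1, a channel protein that returns misfolded chains to the cytosol, had 272 and 789 (distal) and 663 and 1242 (proximal), so its regions overlapped, and its difference of -0.97 was -0.20 without distal replicate 1 and -0.52 without proximal replicate 2. A second listed probe set of Derl1 gave 6.4 and 62.5 against 130 and 153, which did not overlap. H47 (now Selenos), a selenoprotein that works with Derl1, overlapped too, at 689 and 290 against 793 and 628, with a difference of -0.66 that was -0.03 without distal replicate 2. Rrbp1, a ribosome-binding protein of the rough ER, was 1.67-fold higher in the proximal matrix at 191 and 180 against 256 and 377, without overlap. Its difference of -0.74 was -0.46 without proximal replicate 2.

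Of 12 genes of traffic between ER and Golgi, 9 had higher intensities in the proximal and 3 in the distal matrix, with a median log2 difference of -1.14. The arrays did not overlap for 8, beside 73.1% of listed genes and 34.7% of all probe sets. Mcfd2, part of a cargo receptor that takes coagulation factors out of the ER, had intensities of 40.3 and 4.6 (distal) and 208 and 136 (proximal). Its distal values were both below the control background, which leaves a proximal level at least 2.46-fold higher. The same held for Copz2, a subunit of the COPI coat, at 50.1 and 13.3 against 221 and 178, at least 2.89-fold higher in the proximal matrix. Arfgap2, which ends the cycle of Arf GTPases on COPI vesicles, had 120 and 99.3 (distal) and 718 and 185 (proximal). Its proximal arrays differed more from each other than the lower of them did from the distal arrays, and the log2 difference of -1.74 ± 0.68 was -0.76 without proximal replicate 1. Sec22b, a SNARE of ER and Golgi membranes, had 106 and 79.4 against 191 and 338, a difference of -1.47 ± 0.71 with no overlap. Pgap1, an ER enzyme that remodels lipid anchors of surface proteins, had 74.6 and 72.9 against 235 and 182, the distal arrays nearly equal, and was 2.80-fold higher in the proximal matrix.

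Among the other members of this step, Ergic2, a membrane protein of the intermediate compartment, had 328 and 149 (distal) and 581 and 433 (proximal). Tmed2, a cargo receptor of the p24 family, had 118 and 203 (distal) and 331 and 332 (proximal). Both were without overlap, at 2.27-fold and 2.14-fold higher in the proximal matrix. The difference of -1.19 for Ergic2 was -0.61 without distal replicate 2, and that of -1.10 for Tmed2 was -0.71 without distal replicate 1. Trappc1, of the TRAPP tether, and Scfd1, a partner of Golgi SNAREs, had log2 differences of -1.03 and -0.93 with overlapping arrays. Trappc1 was at -0.32 without proximal replicate 1, and Scfd1 at -0.48 without distal replicate 1 and -0.44 without proximal replicate 2. On the distal side, Yif1a, a membrane protein that cycles between ER and Golgi, had intensities of 1138 and 514 (distal) and 317 and 130 (proximal). Its arrays did not overlap, and its difference of 1.92 ± 0.53 was the largest of the 15 genes higher in distal matrix. It was 1.27 without proximal replicate 2. Yipf5, whose protein binds that of Yif1a, had 82.5 and 669 against 115 and 121, so that 1 distal array lay below both proximal arrays. Sec24d, which picks cargo for COPII vesicles, had 100 and 380 against 58.6 and 197. Without distal replicate 2 the differences of Yipf5 and Sec24d turned, to -0.51 and -0.10, and without proximal replicate 1 that of Sec24d was -0.01.

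All 6 Rab GTPases and Rab effectors had higher intensities in the proximal matrix, as 68.3% of listed genes had, with a median log2 difference of -1.55 (-1.50 with bounds). The arrays did not overlap for 5, beside 73.1% of listed genes and 34.7% of all probe sets. Rab31, a GTPase that moves cargo between the Golgi and endosomes, had intensities of 11.7 and 6.8 (distal) and 264 and 190 (proximal). Its distal values were below the control background on both arrays, so only a bound can be given, a proximal level at least 3.27-fold higher. Zfyve20 (now Rbsn), an effector at early endosomes, had 2.3 and 176 (distal) and 225 and 231 (proximal). One distal array lay close to the proximal ones and the other near 0, and without distal replicate 1 the difference of -3.50 ± 1.34 was -0.38. Rab4a, of rapid recycling from endosomes, had 53.5 and 76.5 against 159 and 224, below the control background in distal matrix and at least 2.75-fold higher in proximal matrix. Rab15, also of recycling endosomes, had 443 and 399 against 630 and 1100, above the control background on every array and 1.98-fold higher in proximal matrix. Its difference of -0.99 was -0.58 without proximal replicate 2. Rab22a, of early endosomes, had 79.2 and 141 against 226 and 168, a difference of -0.88 that was -0.46 without distal replicate 1. Rabep1, which links Rab proteins at early endosomes, overlapped, at 28.6 and 173 against 143 and 296, and its difference of -1.55 was -0.25 without distal replicate 1 and -1.02 without proximal replicate 2.

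**Figure D2:**
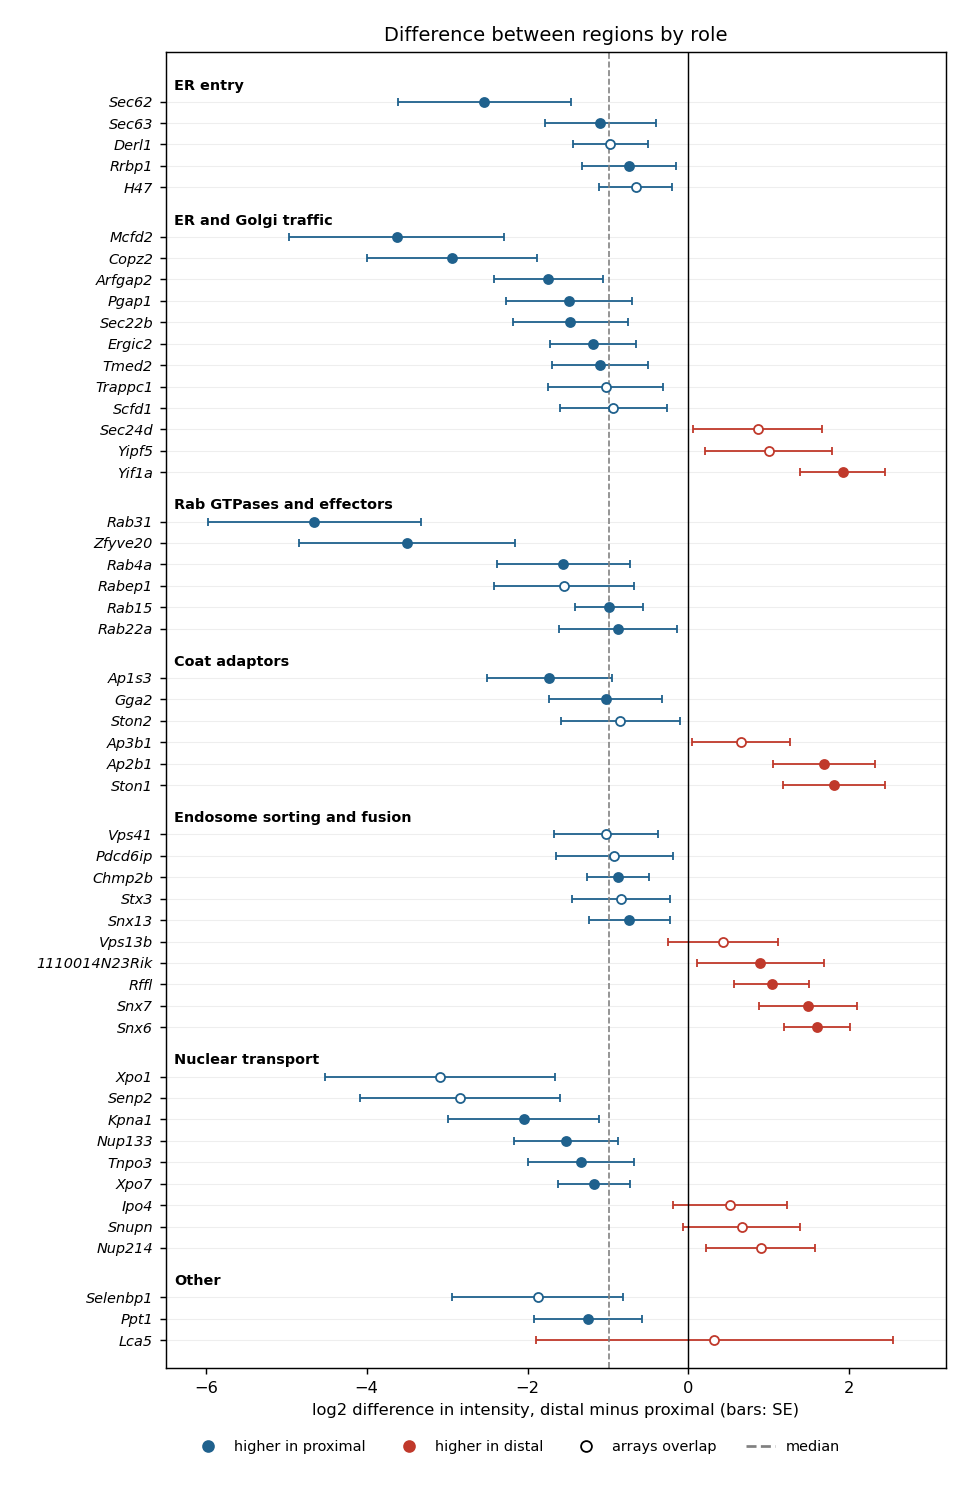
Log2 difference in intensity of each transport gene, distal minus proximal, with limma's SE (n = 2 arrays per region), grouped by role. Filled points are genes whose arrays did not overlap between regions, open points those that did, and the dashed line is the median of -0.99. Points are measured values, also for the 7 genes whose lower region was not above the control background, where the size has only a bound or, for Lca5, none. All 6 Rab genes and all 5 genes of ER entry lie below 0, while coat adaptors divide evenly.

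The 6 coat adaptor genes divided evenly between the regions, 3 higher in each, with a median log2 difference of -0.10. Ap1s3, a small subunit of the adaptor of the Golgi and endosomes, had 81.5 and 57.1 (distal) and 185 and 277 (proximal), a difference of -1.73 ± 0.78 without overlap. Gga2, another Golgi adaptor, had 79.6 and 157 against 267 and 196, 2.04-fold higher in proximal matrix and also without overlap, and its difference of -1.03 was -0.54 without distal replicate 1. Ap2b1, the large beta subunit of the plasma membrane adaptor of endocytosis, went the other way, at 243 and 587 (distal) and 104 and 133 (proximal). Its lowest distal value was above its highest proximal one, and its difference of 1.69 ± 0.64 was 1.05 without distal replicate 2. The stonin genes, whose proteins are endocytic adaptors, lay on opposite sides. Ston1 had 337 and 454 (distal) and 72.1 and 173 (proximal), a difference of 1.81 ± 0.64 without overlap and of 1.18 without proximal replicate 1. Ston2 had 132 and 89.9 against 306 and 125, a difference of -0.84 with overlap and of -0.20 without proximal replicate 1. Whether Ston1 and Ston2 differ in their response to region was not tested. Ap3b1, of the adaptor that sorts to lysosomes and pigment granules, was high on distal replicate 2 alone, at 183 and 498 against 200 and 184.

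Endosome sorting and fusion held 10 members, 5 higher in each region, with a median of -0.15. The arrays did not overlap for 6, beside the same 73.1% and 34.7%. The sorting nexins, which bind lipids of endosome membranes, were divided. Snx6, a partner of retromer, had 1013 and 1133 (distal) and 300 and 415 (proximal) and Snx7 had 652 and 259 (distal) and 191 and 113 (proximal). Both were without overlap, with differences of 1.60 ± 0.41 for Snx6 and 1.49 ± 0.61 for Snx7, the latter 0.82 without distal replicate 1. The second listed probe set of Snx6 had the opposite direction, at 135 and 38.6 (distal) and 296 and 191 (proximal), also without overlap, with a proximal excess of 2.28-fold in the authors' deposited table. As the mean of its probe sets, the difference of Snx6 was -0.06, so no direction can be given for the gene as a whole. Second probe sets of Derl1, Nup133 and Senp2 had the direction of the main ones. Snx13, a sorting nexin with a domain that acts on G proteins, had 244 and 296 against 398 and 501, higher in proximal matrix by 1.66-fold.

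Further along the endosomal route, Chmp2b, a subunit of the ESCRT filament that pinches membranes, had 712 and 462 (distal) and 1128 and 982 (proximal). It did not overlap, and its difference of -0.88 ± 0.39 had the smallest SE of the 51 and was -0.56 without distal replicate 2. Pdcd6ip, an ESCRT adaptor also called Alix, Vps41, of the tether that joins endosomes to lysosomes, and Stx3, a SNARE of the apical cell surface, all overlapped. For Vps41 the intensities were 928 and 92 (distal) and 519 and 677 (proximal), and for Stx3 they were 938 and 122 against 742 and 494. In both, one distal array was the highest and the other the lowest of the 4, and without distal replicate 2 the differences turned from -1.02 to 0.65 for Vps41 and from -0.84 to 0.63 for Stx3. Rffl, a FYVE protein of endosomes, had 873 and 631 (distal) and 558 and 236 (proximal), a difference of 1.03 ± 0.47 without overlap and of 0.41 without proximal replicate 2. The gene listed as 1110014N23Rik (now Vps51), a subunit of the tether that receives vesicles from endosomes at the Golgi, had 150 and 181 (distal) and 111 and 71.3 (proximal). It did not overlap, at 1.86-fold higher in distal matrix, and its difference of 0.89 was 0.58 without proximal replicate 2. Vps13b, a Golgi lipid transfer protein, had 157 and 255 against 109 and 202 and overlapped.

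Nuclear transport held 9 members, 6 higher in proximal and 3 in distal matrix, with a median of -1.33, and 4 of them did not overlap, all higher in proximal matrix (beside 53.0% of listed genes and 18.3% of all probe sets). Xpo7, an exportin of broad cargo, had 264 and 497 (distal) and 753 and 888 (proximal). It was above the control background on every array and 2.26-fold higher in proximal matrix, and its difference of -1.17 was -0.72 without distal replicate 1. Xpo1, the main exportin of proteins with a leucine-rich export signal, had 2.3 and 156 against 186 and 139. Its difference of -3.09 ± 1.43 was -0.05 without distal replicate 1. Kpna1, an importin alpha that reads nuclear localization signals, had 22.1 and 97 (distal) and 148 and 249 (proximal), a difference of -2.05 ± 0.94 without overlap and of -0.98 without distal replicate 1. Nup133, of the nuclear pore scaffold, had 250 and 70.8 against 403 and 362. Its difference of -1.52 ± 0.64 was -0.61 without distal replicate 2.

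Tnpo3, an importer of splicing factors, had a pattern like that of Nup133, at 197 and 76.4 (distal) and 315 and 303 (proximal), without overlap. Its difference of -1.33 was -0.65 without distal replicate 2. Senp2, a SUMO protease bound to nuclear pores, had 8 and 80.6 against 649 and 51, so 1 proximal array stood far above the other 3. Its distal values were not above the control background, which leaves a mean proximal level at least 2.66-fold higher, though proximal replicate 2 lay below distal replicate 2. The measured difference of -2.84 was -1.17 without distal replicate 1 and -1.01 without proximal replicate 1. A second listed probe set of Senp2 gave 11.7 and 39.1 against 133 and 144, which did not overlap. On the distal side, Snupn, which imports spliceosomal particles, had 95 and 629 against 159 and 150, and Nup214, of the cytoplasmic face of the pore, had 161 and 692 against 102 and 315. Ipo4, an importer of histones and ribosomal proteins, had 500 and 102 against 140 and 178. All 3 overlapped, with 1 high distal array each, and each turned when that array was left out, to -0.70 for Snupn, -0.15 for Nup214 and -0.64 for Ipo4.

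The remaining members were Ppt1, Selenbp1 and Lca5. Ppt1, a lysosomal enzyme that removes fatty acids from proteins, had 86.2 and 170 (distal) and 206 and 403 (proximal), 2.38-fold higher in proximal matrix without overlap. Its difference of -1.25 was -0.76 without distal replicate 1 and -0.77 without proximal replicate 2. Selenbp1, a selenium-binding protein, overlapped, at 19.1 and 84.8 against 70.6 and 308, and its difference of -1.87 was -0.80 without distal replicate 1 and -0.81 without proximal replicate 2. Lca5, a protein of cilia, had 1.5 and 343 against 94.1 and 3.5, above the control background on 1 array of 4. Its difference of 0.32 ± 2.22 had the largest SE of the 51, and no direction can be read from it.

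The members higher in distal matrix were often high on 1 array. Of the 15, 7 did not overlap (46.7%, beside 63.2% of the 359 listed genes higher in distal matrix), and 11 had their highest value on distal replicate 2 (73.3%, beside 54.6%), shares that were not tested against each other. Of the 36 higher in proximal matrix, 24 did not overlap (66.7%, beside 77.6% of 774 listed genes), and their highest value was on proximal replicate 1 for 17, on proximal replicate 2 for 17 and on distal replicate 1 for 2. Leaving out distal replicate 2 turned the direction of 8 members (Ap3b1, Sec24d, Yipf5, Vps41, Stx3, Snupn, Nup214 and Lca5), 6 of them from the distal side, and left 11 higher in distal and 40 in proximal matrix. Leaving out distal replicate 1 turned Ipo4 alone, leaving out proximal replicate 1 turned Sec24d and Vps13b, and leaving out proximal replicate 2 turned Lca5.

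**Figure D3:**
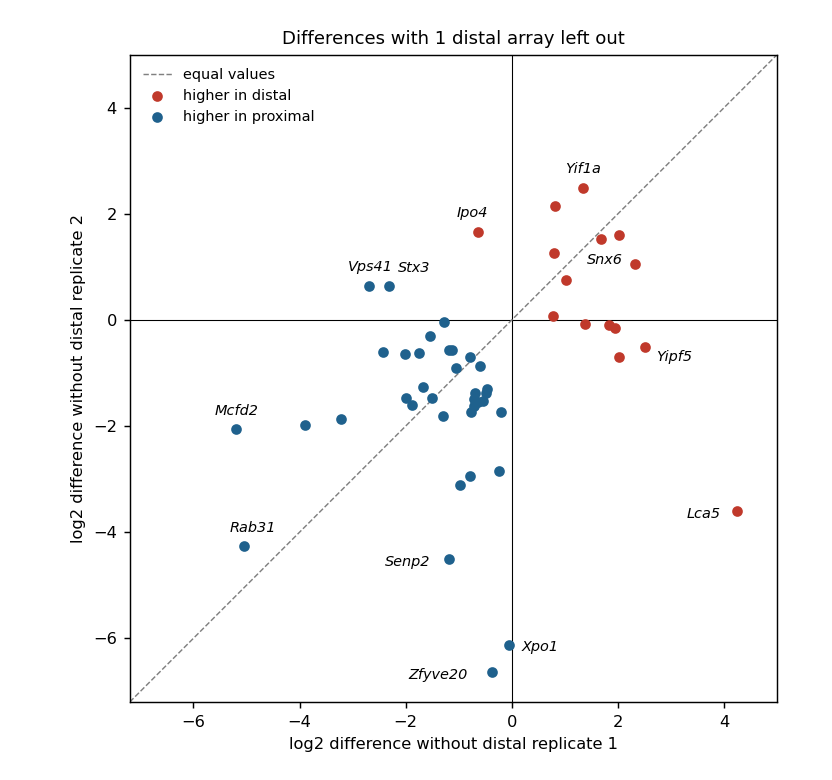
Log2 difference, distal minus proximal, of each of the 51 genes without distal replicate 1 (horizontal) and without distal replicate 2 (vertical), with the dashed line at equal values. Genes in the lower right and upper left quadrants take opposite directions from the 2 distal arrays. Zfyve20 and Xpo1 lie near 0 on the horizontal axis (-0.38 and -0.05), and Rab31 lies far below 0 on both.

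The authors' log2 values and the deposited intensities are separate summaries of the same 4 arrays, and they gave the members differences of unlike size. The differences correlated at r = 0.83 over the 51 genes, which share arrays and direction by choice, so the value is a description. The median size was 1.10 on the log2 scale in the intensities and 1.23 in the authors' deposited table, and 17 genes had the larger size in the intensities. In the authors' deposited table the proximal excess was 2.34-fold for Rab31, 2.37-fold for Mcfd2 and 2.66-fold for Zfyve20, whose lower distal intensities were 6.8, 4.6 and 2.3. The largest folds of members in the authors' deposited table were 4.90 for Arfgap2, 4.28 for Yif1a and 4.21 for Kpna1. Those just inside the limit of 1.99 in the authors' deposited table were Sec24d at 1.993, Sec22b at 1.994 and 1110014N23Rik at 2.01, and genes just outside it are not named here. Lca5 was 3.22-fold higher in distal matrix in the authors' deposited table.

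**Figure D4:**
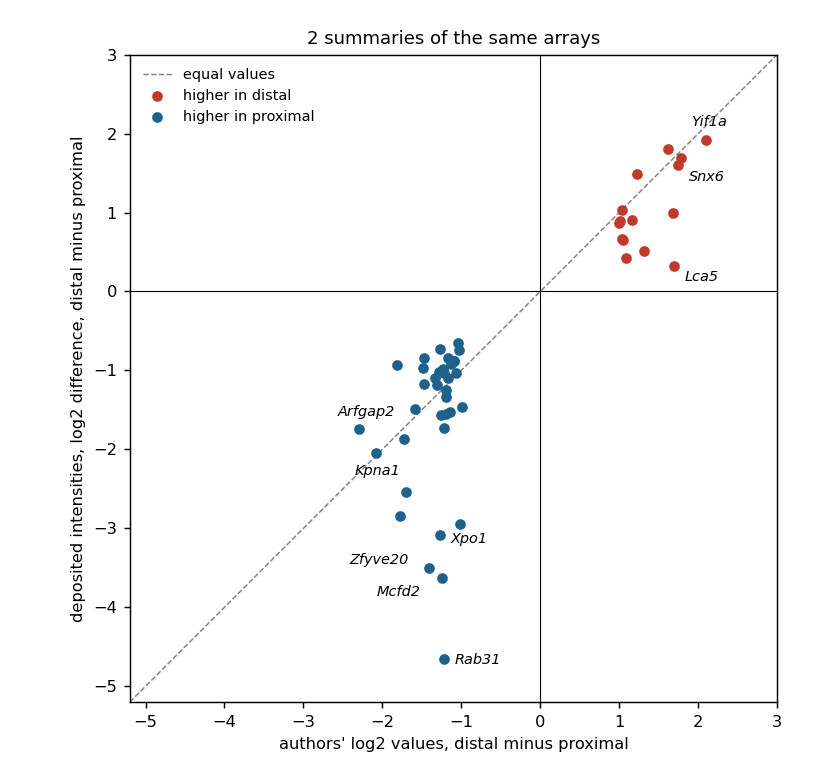
Log2 difference of each of the 51 genes, distal minus proximal, from the authors' log2 values (horizontal) and from the deposited intensities (vertical), with the dashed line at equal values. All genes lie in the lower left or upper right quadrant. Rab31, Mcfd2, Zfyve20 and Xpo1 lie far below the line, and Lca5 lies below it on the distal side.

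Beyond the members, 33 other listed genes fell into lists of the transport machinery drawn up by symbol, either because they lack the process terms above or because another term left them out. Of these, 22 had higher intensities in proximal and 11 in distal matrix, with a median log2 difference of -0.95. The arrays did not overlap for 24 (72.7%, beside 73.1% of listed genes and 34.7% of all probe sets). With limma 0 of 33 passed the adjusted test, and 12 had an unadjusted p under 0.05 (beside 47.1% of listed genes). At the ER, Hspa13, a microsomal chaperone, had 68.4 and 102 (distal) and 323 and 228 (proximal), and Srp72, of the signal recognition particle, had 160 and 207 (distal) and 441 and 579 (proximal). Neither overlapped, and both genes were higher in proximal matrix, as the 5 members of that step were. Golga4, a golgin tether, had 206 and 163 against 257 and 449. Among the regulators of small GTPases, Rabl3 had 118 and 17.1 (distal) and 182 and 306 (proximal) and Arl2bp had 102 and 60.3 against 217 and 292, while Tbc1d14 and Tbc1d24 had higher but overlapping intensities in distal matrix.

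Genes of endocytosis outside the members were divided as the adaptors were, 3 higher in each region. Itsn1, an endocytic scaffold, had 90 and 106 (distal) and 17.3 and 2.5 (proximal), not above the control background in proximal matrix and at least 1.47-fold higher in distal matrix. Reps1, which binds that scaffold's partners, had 62.8 and 83 against 303 and 274. Vps25, an ESCRT subunit left out of the members by a mitochondrial term, had 107 and 12.2 (distal) and 449 and 199 (proximal). Further nuclear transport genes were Aaas (42.5 and 5 against 113 and 96.3), Nup62 (205 and 302 against 408 and 561) and Xpot (262 and 286 against 720 and 407). All 3 were higher in proximal matrix without overlap, beside 53.0% of listed genes and 18.3% of all probe sets. Aaas was not above the control background in distal matrix, so only a bound can be given, a proximal level at least 1.52-fold higher. In the list of autophagy and lysosome delivery, 4 genes outside the members were higher in proximal and 1 in distal matrix. Becn1, a subunit of the lipid kinase that starts autophagosomes, had 251 and 65.2 against 390 and 423, and Cln8 had 262 and 141 against 350 and 395. Pldn (now Bloc1s6), of a complex that builds lysosome-related organelles, had 387 and 192 (distal) and 124 and 80.8 (proximal), higher in distal matrix without overlap. As measured, motor and carrier genes divided 2 and 2, with Hook1 and Myo19 higher in proximal and Lin7b and Kif14 higher in distal matrix. Kif14 had 215 and 46.4 (distal) and 95.8 and 32.6 (proximal), with overlap, and was above the control background on distal replicate 1 alone. Its difference was 0.84 ± 1.06, and no direction can be read from it. None of these genes passed limma's adjusted test either.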

How the data were processed

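Per the labels, distal and proximal nail matrix of mice aged 8 weeks gave total RNA for 2 arrays each. The authors deposited 1 linear intensity for each probe set and array, and the sources used here do not state how it was scaled. The fold list, per the file headers, came from Affymetrix Mouse430_2 arrays at a fold cut-off of 1.99 with distal matrix as control. Its unsigned fold is the ratio of the higher to the lower region, and its log2 values per region are the authors' own, made by steps that the sources used here do not state. Gene names come from that list alone. All 51 members matched RefSeq (assembly GRCm38.p6) by gene identifier, which gave 3 newer symbols.

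Intensities below 1 were raised to 1, log2 was taken, and 45037 probe sets were fitted with limma 3.58.1 in R 4.3.3 (lmFit, eBayes with an intensity trend, two-sided, Benjamini-Hochberg, threshold 0.05). The fit was tested on simulated data with normal noise, where 50 bright probe sets were changed at each size. Of these, 10% passed at a log2 change of 1, 54% at 2, 94% at 3 and 98% at 4, so changes of 1 were mostly missed there. In the same simulation 8 unchanged probe sets passed. Spread was set by intensity alone, without differences between genes of like intensity, and only bright probe sets were changed. The shares therefore do not carry over to dim members. Differences are distal minus proximal with limma's SE. A probe set at or below the highest of 27 Bacillus subtilis controls on both arrays of a region has only a bound there, computed against that control or its own value, whichever was higher, by mean log2. A bound under 1-fold, as for Lca5, was not given. The p-values measure the spread between these arrays, which may be technical.

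Array values are given for up to 12 genes per direction by size, without overlap and with the higher region above control (19 genes), and for most others. From each list of pathway genes, up to 3 genes that met the same conditions qualified; further genes named there were chosen after their values were seen. Letter patterns also put Tmem164 and Tmem167 in the SNARE list. Roles were assigned by hand. The members, lists and tests were chosen with earlier results of these data known. Arrays sharing a replicate number had deviations that correlated at -0.0072, so the numbers were not taken as pairs. Promoter sequences are from RefSeq.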

Additional observations from a re-analysis of the deposited data

How the results depend on the processing

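The counts of transport genes by direction held within 1.5 times of 15 distal and 36 proximal under each scaling, level, trend and array left out; with the term vesicle-mediated transport alone, a smaller set by construction, they were 5 and 13. The median log2 difference was -1.50 when arrays were scaled to 18 hybridization controls, which moved the median of all probe sets to -0.57 and turned Vps13b and Lca5 (13 distal, 38 proximal), and from -1.01 to -0.71 with 1 array left out. None of the 51 passed limma's adjusted test under any scaling, while 14 passed without distal replicate 1 and 9 without distal replicate 2, where 2.0% and 1.41% of all probe sets passed and the lone distal array is assumed to vary like the proximal ones; 0 passed without proximal replicate 1 or 2. Over all probe sets limma called 30, against 9 under quantile normalization, 8 under median centring, 12 with hybridization controls, 17 with log2 of the intensity plus 16, 2 among brighter probe sets, 0 without the variance trend, 90 with the replicate number as a block, and 4 to 899 with 1 array left out. For the fits with 1 array left out, the share of listed genes that passed is not given. Fold on this contrast chose the members, so all probe sets are no fair background for them. Nothing is read from the number of members that passed in those fits. With the replicate block 0 of 51 members passed. Without the trend 4 of the 51 had an unadjusted p under 0.05 with limma. The shares of all probe sets and of listed genes under 0.05 in that fit are not given, so nothing is read from this count. Of 228 values for the 19 genes chosen by size, 219 stayed within 1 SD of their arrays, 8 moved with the direction kept and 1 reversed. The reversed value was that of Snx6 as the mean of its probe sets (-0.0601). Many of the 219 could not have moved, so the count is no measure of stability. Leaving out 1 array shifts a difference by no more than this SD, as for Zfyve20 (-3.50 to -0.38). The variance trend, replicate block and choice of brighter probe sets leave differences unchanged. Averaging probe sets changes only genes with a second listed probe set. Apart from a scaling or another scale applied to all, the causes of the moves were not tested. With 20 of 51 genes below the control background on at least 1 array, low intensities limit the size of the larger differences.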

Other observations

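Cell compartments are annotated in the authors' list beside the process terms that chose the members, and the 2 kinds of term go together. The Golgi apparatus was annotated for 15 members and the endoplasmic reticulum for 13. Of the 15 Golgi members, 11 had higher intensities in the proximal matrix (73.3%, median log2 difference -1.10), and of 37 other listed Golgi genes 26 did (70.3%, median -0.98). Of the 13 ER members, 11 were higher in proximal matrix (84.6%), beside 38 of 50 other ER genes (76.0%). All 6 members annotated to the endosome (Rab22a, Rab4a and Zfyve20 among them) were higher in proximal matrix, beside 9 of 12 other endosome genes. These 6 are not the 10 members assigned by hand to endosome sorting and fusion, of which 5 were higher in each region. None of these shares was tested.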
